A study of Mus musculus with 6 samples.

Results

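Canonical Wnt signalling was examined in mouse embryoid bodies (EBs) through 10 genes that stand for its ligands, its nuclear effectors and its feedback targets. These were the ligands Wnt3, Wnt3a and Wnt8a, the DNA-binding factors Lef1, Tcf7 and Tcf7l1, and the target genes Axin2, Sp5, Dkk1 and Nkd1. The genes were taken from the count table by symbol, 10 of its 52636 genes, and all 10 were among the 17849 genes that passed the filter on low counts. The study asked how loss of Tnfaip2 affects the differentiation of embryonic stem cells (ESCs). Bulk RNA-seq compared 3 replicates of WT EBs with 3 replicates of Tnfaip2-/- EBs. Both genotypes were of the mouse ESC line E14, the WT cells being the parental line. The Tnfaip2-/- cells were a single clone in which CRISPR-Cas9 editing had put an early stop codon into the second exon of Tnfaip2, so that an effect of the genotype and a property of that clone cannot be told apart. All EBs formed for 3 days in hanging drops of ESC medium with leukemia inhibitory factor (LIF), and then spent 3 days on gelatin in MEF medium, for which no LIF is listed. The totals lay between 22489903 and 23804489 counts in the WT EBs and between 21765931 and 22480962 counts in the Tnfaip2-/- EBs.

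Tnfaip2 itself was near the limit of detection in both genotypes. It gave 7, 4 and 7 counts in WT EBs against 0, 2 and 2 in Tnfaip2-/- EBs. All Tnfaip2-/- samples were below all WT samples, at or under a floor of 3 counts, and the gene did not pass the filter. An edited transcript can still be counted, so these counts check the labels only weakly. The 10 pluripotency markers examined were detected in both genotypes, and their summed level lay between 2098 and 2140.3 counts per 1e+06 counts (CPM) in all 6 samples. Of these 10 genes, 4 fell and 6 rose, with a median log2 fold change of 0.25. Pou5f1, which encodes OCT4, was highest in mean CPM over all 6 samples and in WT EBs, though below Zfp42 in Tnfaip2-/- EBs, and fell 1.81-fold, and Klf4 fell 2.80-fold. Dppa3, Klf2 and Zfp42 rose 6.37-fold, 1.98-fold and 1.87-fold.

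In the canonical pathway, secreted Wnt proteins bind Frizzled receptors and LRP co-receptors, which stops a cytoplasmic complex built on Axin from marking beta-catenin for degradation. Beta-catenin then enters the nucleus and binds TCF/LEF factors, and genes that these factors had held inactive are transcribed. Several targets encode inhibitors of the pathway, and in the mouse embryo the signal is needed to form the primitive streak, where mesoderm arises.

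Most of the genes were lower in Tnfaip2-/- EBs. By the quasi-likelihood test of edgeR, with p-values adjusted over all tested genes after Benjamini and Hochberg, 8 of the 10 fell at a threshold of 0.05, against 33.7% of all tested genes. Tcf7l1 rose, a direction called for 34.0% of all tested genes, and Tcf7 did not pass. Of all tested genes, 67.7% were called in either direction, so a call alone does not set a gene apart here. The same 33.7% lower and 34.0% higher are the shares to set beside the counts of every list below. A fall of at least 2-fold was called for 6 of the 10 genes, against 4.51% of all tested genes. The median log2 fold change of the 10 genes was -1.66, and that of all tested genes was 0.0030. Wnt8a and Wnt3a were under the filter's minimum of 10 counts in every Tnfaip2-/- sample, so they passed through their WT counts alone. For such genes the filter largely sets the direction, which limits these counts and this median. The same limit applies to genes of the lists below that passed through 1 genotype alone. In CPM, the samples of the genotypes did not overlap for any of the 10 genes, as for 69.4% of all tested genes. A smaller number of cells of a type and less RNA per cell cannot be told apart in bulk samples.

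**Figure D1:**
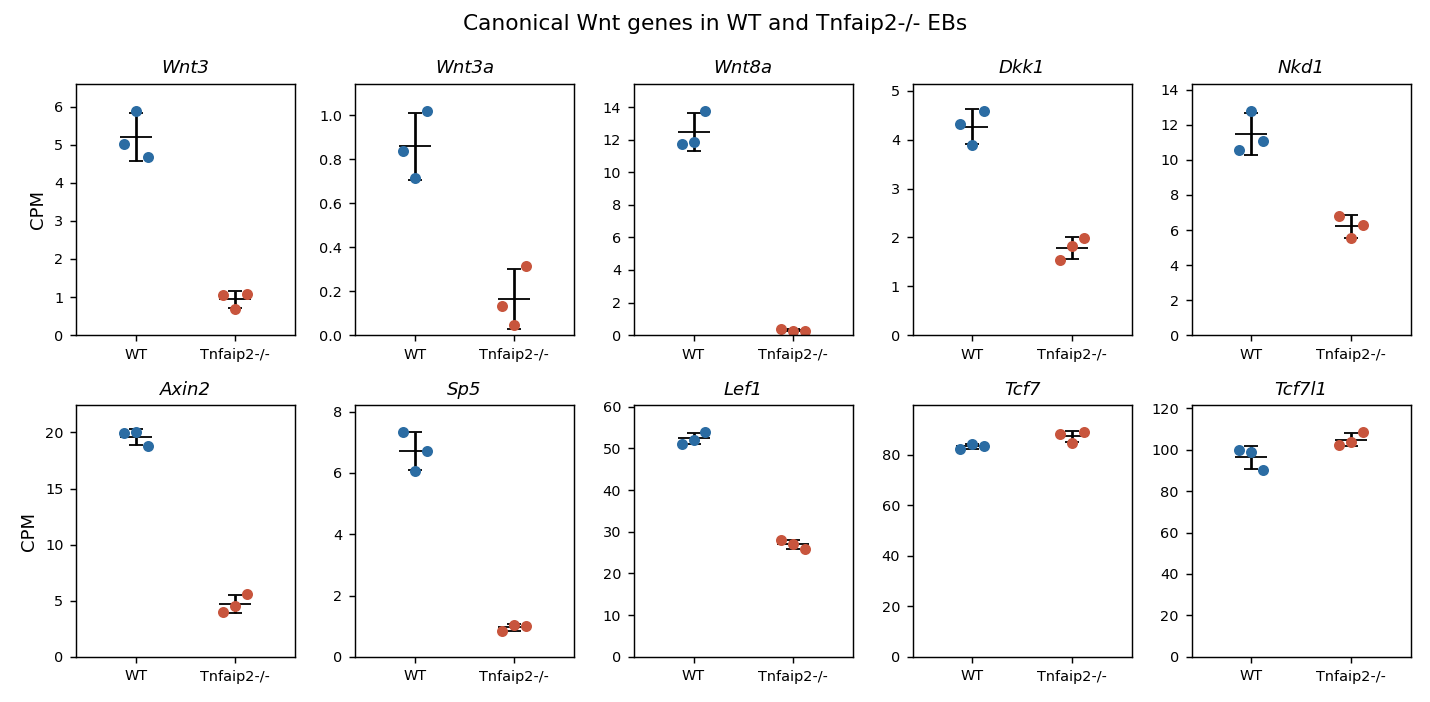
Normalised level (CPM, linear axis from 0) of each of the 10 genes in the 3 WT and 3 Tnfaip2-/- EB samples. Points are samples, and the horizontal line and bars are the mean and SD over 3 replicates. The ligands and the targets Axin2, Sp5 and Dkk1 are low in all Tnfaip2-/- samples. Lef1 falls from 52.4 to 27.0 CPM and Nkd1 from 11.5 to 6.20 CPM. Tcf7 and Tcf7l1 are at nearly the same level in both genotypes.

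Among the ligands, Wnt8a changed most. Positions are those of the gene on GRCm38. Wnt8a (ENSMUSG00000012282), a ligand expressed around the primitive streak, gave 266, 265 and 324 counts in WT EBs against 9, 6 and 6 in Tnfaip2-/- EBs. Every Tnfaip2-/- sample was thus far below every WT sample. The level fell from 12.5 ± 1.16 to 0.314 ± 0.0715 CPM (SD, n = 3), a 39.0-fold difference, which on the log2 scale is -5.29 ± 0.177 (SE, edgeR adjusted p = 3.29e-29). Of the 17849 genes tested, Wnt8a had the log2 fold change of rank 10 counted from the most negative. Wnt3 (ENSMUSG00000000125, chr11:103774150-103817957, forward strand), the ligand required to start the streak in the mouse, gave 114, 132 and 110 counts in WT EBs against 24, 15 and 24 in Tnfaip2-/- EBs. On the log2 scale this 5.48-fold fall was -2.45 ± 0.175 (SE, edgeR adjusted p = 6.3e-17). Wnt3a (ENSMUSG00000009900, chr11:59248033-59290752, reverse strand), which acts in the later streak and tail bud, was rare in both genotypes, with 19, 16 and 24 counts against 3, 1 and 7 counts. The groups still did not overlap, and the log2 fold change was -2.35, with the widest standard error of the 10 genes (0.412, adjusted p = 2.54e-06 from edgeR). The size of this fall rests on few counts and depends on Tnfaip2-/- replicate 3, which gave the 7.

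The promoters of Wnt3, Sp5 and Dkk1 are shown because these genes fell and their windows hold letters that TCF/LEF factors bind. That of Axin2 is shown because it fell too, with no such match. Lef1, with a match, and Wnt3a and Nkd1, without one, also fell and are not shown. The part of these letters in the falls was not tested. Each window runs from 250 bases before to 50 bases after a RefSeq transcription start (GRCm38.p6), is written 5′ to 3′ on the strand of the gene, and has matches to the motif CTTTGAA, the motif CTTTGAT, the motif CTTTGTT and the motif CTTTGTA, on either strand, in capitals. A match on the opposite strand appears as its reverse complement. SOX factors bind closely related letters, CTTTGTT among them, so a match to any of these motifs is not specific to TCF/LEF factors. The windows lie at chr11:103773925-103774224 (forward strand) for Wnt3, chr2:70474673-70474972 (forward) for Sp5, chr19:30549447-30549746 (reverse) for Dkk1 and chr11:108920099-108920398 (forward) for Axin2.
Wnt3: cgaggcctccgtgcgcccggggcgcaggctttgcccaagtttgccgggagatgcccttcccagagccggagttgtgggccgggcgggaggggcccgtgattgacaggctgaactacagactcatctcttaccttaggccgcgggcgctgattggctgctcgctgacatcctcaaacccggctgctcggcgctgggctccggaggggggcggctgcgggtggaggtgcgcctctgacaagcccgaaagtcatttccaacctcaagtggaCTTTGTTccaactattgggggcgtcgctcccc
Sp5: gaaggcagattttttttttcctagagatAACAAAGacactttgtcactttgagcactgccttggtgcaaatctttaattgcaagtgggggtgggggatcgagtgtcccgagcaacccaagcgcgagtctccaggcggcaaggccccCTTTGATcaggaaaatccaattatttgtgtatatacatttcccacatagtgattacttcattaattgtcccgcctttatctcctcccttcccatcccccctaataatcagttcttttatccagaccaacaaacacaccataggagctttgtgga
Dkk1: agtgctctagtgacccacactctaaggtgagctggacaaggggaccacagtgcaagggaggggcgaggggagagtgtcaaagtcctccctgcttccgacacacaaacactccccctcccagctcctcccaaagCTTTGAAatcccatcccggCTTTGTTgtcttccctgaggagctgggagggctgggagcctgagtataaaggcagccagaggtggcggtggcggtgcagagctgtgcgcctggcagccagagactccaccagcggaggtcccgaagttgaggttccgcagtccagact
Axin2: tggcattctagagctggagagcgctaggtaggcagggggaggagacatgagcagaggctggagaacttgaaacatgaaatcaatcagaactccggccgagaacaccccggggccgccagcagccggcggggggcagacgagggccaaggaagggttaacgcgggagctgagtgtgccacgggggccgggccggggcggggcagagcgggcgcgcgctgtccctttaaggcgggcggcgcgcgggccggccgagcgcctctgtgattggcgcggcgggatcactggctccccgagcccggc
Windows of 9 of the 10 genes were searched, Wnt8a not being among them. Of their 13 windows, 4 held a match, each of a different gene, and across all 32851 promoter windows of this length 16.9% held at least 1 of the 4 motifs. Wnt3 had its match 18 bases after the start. Sp5 had matches starting 222 and 104 bases before the start, and Dkk1 had matches starting 117 and 98 bases before it. In Lef1 the match was in 1 of 4 windows, 147 bases before an internal start. No match was present in the windows of Wnt3a, Axin2, Tcf7, Tcf7l1 and Nkd1, which says only that these letters are not in those windows. The window of Nkd1 (chr8:88527383-88527682) is at an internal start, so the bases around the annotated start of that gene were not searched.

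Of all 19 mouse Wnt ligands, 11 could be tested, of which 9 fell and 2 rose. Their median log2 fold change was -1.38. Several of the tested ligands reached the filter's minimum of 10 counts in 1 genotype only, so count and median hold for the tested ligands alone. Of the 9, Wnt11, named after its values were seen, lost its call under 9 of 13 alternatives (adjusted p between 0.0313 and 0.165, edgeR or DESeq2). The ligands that rose were Wnt4 and Wnt9a. Wnt4, a ligand of kidney and gonad development, gave 10, 12 and 9 counts in WT EBs against 53, 65 and 50 in Tnfaip2-/- EBs, a log2 increase of 2.46 ± 0.242 (SE, edgeR adjusted p = 1.94e-12). Wnt9a, named after its values were seen, rose 2.19-fold from 2.13 ± 0.228 to 4.67 ± 0.152 CPM (SD, n = 3). Wnt5a, which acts mainly outside the beta-catenin branch, fell from 37, 39 and 33 counts to 6, 6 and 7 counts. Below the filter, and named after their values were seen, Wnt7b and Wnt8b were higher without overlap. Wnt7b gave 1, 5 and 5 counts in WT EBs against 6, 11 and 15 in Tnfaip2-/- EBs, and Wnt8b 2, 4 and 5 against 7, 8 and 7. Wnt2 and Wnt9b were lower there without overlap, with 2, 5 and 2 against 0 in all samples and 4, 4 and 5 against 1, 2 and 1. Both directions therefore occurred within the ligand family.

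The ligand pool changed in size and in make-up. The summed level of all 19 ligands was 13.1, 13.2 and 14.0 CPM per kb of exon in the WT EBs and 4.52, 4.03 and 4.56 CPM per kb in the Tnfaip2-/- EBs, and the groups did not overlap. Wnt3, Wnt3a and Wnt8a together made up 66.4%, 67.8% and 69.9% of this sum in WT EBs. In Tnfaip2-/- EBs their share was 13.7%, 9.83% and 13.6%. Wnt8a alone accounted for 53.1% ± 2.90 (SD, n = 3) of the WT pool and for 4.10% ± 0.826 of the Tnfaip2-/- pool. The largest share in Tnfaip2-/- EBs was that of Wnt9a, at 32.2% ± 2.17. Wnt5b, also named after its values were seen, had a share of 20.7% ± 3.01, while its own level had fallen 2.06-fold. The share of Wnt4 was 0.809% ± 0.157 in WT EBs and 13.9% ± 3.19 in Tnfaip2-/- EBs, and the samples of Wnt4 and Wnt5b overlapped in Tnfaip2-/- EBs. These shares are a description with no test, and depend on the annotated exon length of each gene.

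**Figure D2:**
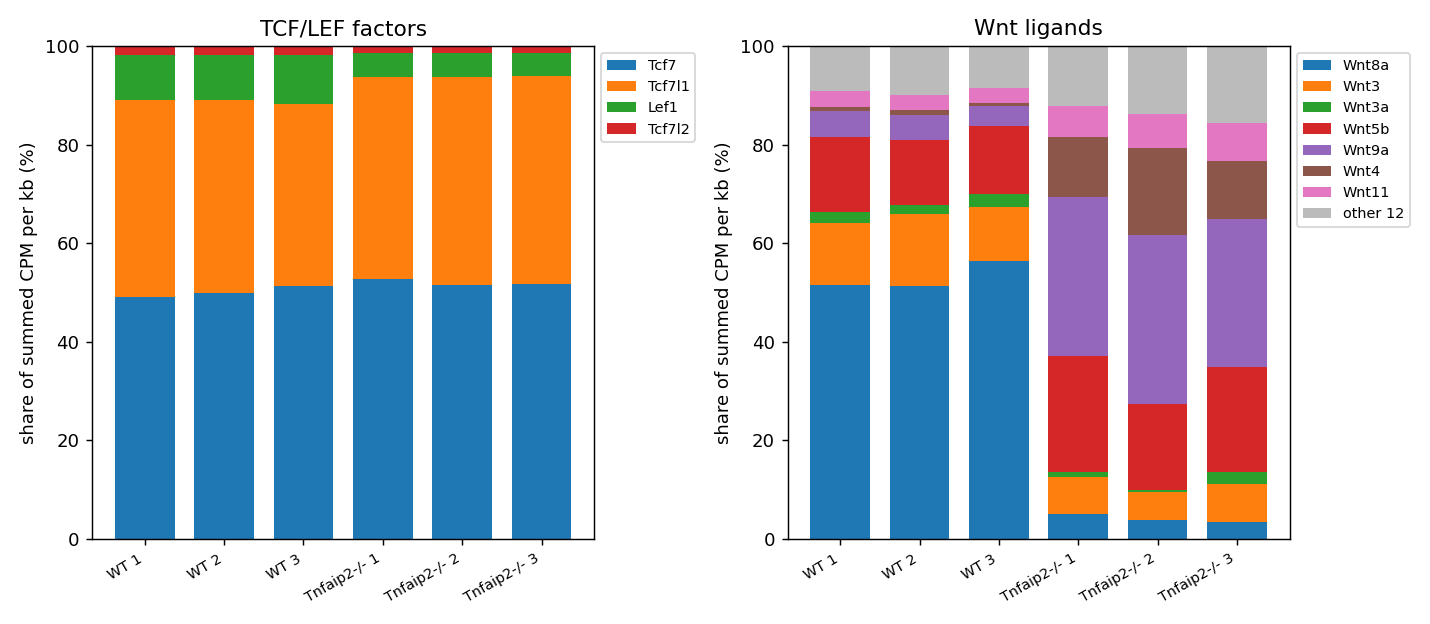
Share of each gene in the summed level per kb of exon (percent, bars to 100) in each of the 6 samples, for the 4 TCF/LEF factors and for the 19 Wnt ligands. Wnt8a makes up between 51.3% and 56.4% of the ligand pool in WT EBs and between 3.40% and 5.01% in Tnfaip2-/- EBs, and the TCF/LEF pool is mostly Tcf7 and Tcf7l1 in all samples.

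Genes for the release of ligands moved in opposite directions. Wls, the carrier that brings Wnt proteins to the cell surface, gave 686, 603 and 746 counts in WT EBs against 167, 172 and 188 in Tnfaip2-/- EBs, a 3.76-fold fall. Porcn, which attaches the lipid that Wnt proteins need for release, rose 1.86-fold, from 49.0 ± 1.51 to 91.1 ± 0.465 CPM (SD, n = 3). Rspo3, a secreted protein that strengthens Wnt signalling, fell from 41, 45 and 46 counts to 6, 3 and 4 counts. In this list of 6 genes, 5 were tested, 2 fell and 1 rose, with a median log2 fold change of -0.12. An antisense gene without counts overlaps Rspo3.

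Of 18 receptor and co-receptor genes, 16 were tested, of which 10 fell and 5 rose, against 33.7% and 34.0% of all tested genes, with a median log2 fold change of -0.37. Lgr6, an R-spondin receptor below the filter and named after its values were seen, gave 1, 2 and 4 counts in WT EBs against 16, 9 and 20 in Tnfaip2-/- EBs. Fzd7, the most abundant of them in CPM, fell 1.56-fold from 266 ± 5.31 to 171 ± 3.37 CPM (SD, n = 3). The largest falls were those of the Frizzled genes Fzd10 (2.93-fold) and Fzd2 (2.18-fold), followed by the Wnt5a receptor Ror1 (1.96-fold) and by Fzd4 (1.85-fold). Fzd1 changed most among the 5 that rose (1.51-fold), and the co-receptors Lrp6 and Lrp5 rose 1.20-fold and 1.13-fold. These rises were named after their values were seen. All these differences exceeded the spread between replicates, and the genotypes did not overlap.

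Dkk1 fell among the inhibitors that are secreted or sit in the cell membrane. Dkk1 (ENSMUSG00000024868, chr19:30545863-30549665, reverse strand), a secreted protein that blocks the LRP co-receptors and is itself a target of the pathway, gave 98, 87 and 108 counts in WT EBs against 35, 40 and 44 in Tnfaip2-/- EBs. All Tnfaip2-/- samples were below all WT samples, and the fitted log2 change was -1.26 ± 0.152 (SE, edgeR adjusted p = 6.46e-10). Of 19 such inhibitors, the membrane ubiquitin ligases Rnf43 and Znrf3 included, 12 were tested, 6 fell and 4 rose, with a median log2 fold change of -0.20. Frzb, a secreted protein that binds Wnt ligands, fell from 70, 59 and 68 to 9, 7 and 7 counts. Cer1, a secreted antagonist that was below the filter, gave 18, 10 and 11 counts in WT EBs against 0, 1 and 1 in Tnfaip2-/- EBs, while Wif1, another secreted inhibitor, gave 3, 2 and 0 against 9, 7 and 9. The Frzb relatives Sfrp1, the most abundant inhibitor in CPM, and Sfrp2 had log2 fold changes of -0.58 and -1.33. Rnf43, which removes Frizzled receptors from the cell surface and is also a target, was higher in all Tnfaip2-/- samples, with 39, 45 and 52 counts against 24, 28 and 23 counts in WT EBs (log2 fold change 0.89, adjusted p = 0.000175 from edgeR). Notum, an enzyme that inactivates Wnt proteins and another target, named after its values were seen, had a log2 fold change of 0.58. Antisense genes overlap 29.4% and 8.72% of its exon bases, and reads from the opposite strand cannot be separated.

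Axin2 and Nkd1 act in the cytoplasm. Axin2 (ENSMUSG00000000142, chr11:108920349-108950783, forward strand), the inducible scaffold of the destruction complex and a widely used readout of the pathway, gave 453, 448 and 441 counts in WT EBs against 91, 99 and 124 in Tnfaip2-/- EBs. The lowest WT sample had more than 3 times the counts of the highest Tnfaip2-/- sample. The level fell from 19.6 ± 0.709 to 4.71 ± 0.809 CPM (SD, n = 3), which on the log2 scale is -2.06 ± 0.0883 (SE, edgeR adjusted p = 5.1e-25). Nkd1 (ENSMUSG00000031661, chr8:88521354-88594884, forward strand), which binds Dishevelled and restrains the signal, had 239, 287 and 260 counts against 155, 121 and 139 counts. The groups did not overlap, although the fall was smaller than that of Axin2, with a fitted log2 change of -0.88 ± 0.0942 (SE, edgeR adjusted p = 2.14e-11).

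The cytoplasmic list holds 15 genes, all tested, of which 8 fell and 3 rose, with a median log2 fold change of -0.10. Without Axin2 and Nkd1, 6 of its 13 genes fell and 3 rose, with a median of 0.05. Ctnnb1, which encodes beta-catenin and was the most abundant gene of the list in CPM, rose 1.15-fold from 715 ± 4.51 to 824 ± 5.02 CPM (SD, n = 3). An antisense gene overlaps 14.6% of its exon bases. The transcript does not measure the protein, whose stability is what the pathway controls. Amer1, a partner of the destruction complex, fell 1.52-fold, and Dvl1, a Dishevelled gene, fell 1.49-fold. None of the genes of this list other than Axin2 fell by 2-fold or more.

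Among the nuclear factors, Lef1 fell while Tcf7 and Tcf7l1 did not. Lef1 (ENSMUSG00000027985, chr3:131110471-131224356, forward strand), a factor that mostly activates targets with beta-catenin and is itself a target, gave 1159, 1167 and 1265 counts in WT EBs against 637, 591 and 574 in Tnfaip2-/- EBs. The samples did not overlap, and the fitted log2 change was -0.96 ± 0.0466 (SE, edgeR adjusted p = 5.8e-23). An antisense gene overlaps 13.7% of the exon bases of Lef1, with 63 counts of its own over all samples. Tcf7 (ENSMUSG00000000782, chr11:52252371-52283014, reverse strand), which encodes TCF1, gave 1867, 1888 and 1963 counts in WT EBs against 2008, 1856 and 1973 in Tnfaip2-/- EBs. After normalization the Tnfaip2-/- samples lay just above the WT samples, but the log2 fold change of 0.07 ± 0.0341 (SE, edgeR adjusted p = 0.0798) did not pass. It passed with library totals in place of TMM factors and without Tnfaip2-/- replicate 2 (edgeR adjusted p = 0.0409), and over 13 alternatives the adjusted p lay between 0.01495 and 0.336.

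Tcf7l1 (ENSMUSG00000055799, chr6:72626378-72789254, reverse strand), which encodes TCF3, acts mainly as a repressor of Wnt targets in ESCs. It gave 2267, 2211 and 2116 counts in WT EBs against 2326, 2271 and 2403 in Tnfaip2-/- EBs. The log2 fold change of 0.12 ± 0.0355 (SE, edgeR adjusted p = 0.00222) was small, and it no longer passed without WT replicate 3 (0.07 on the log2 scale, edgeR adjusted p = 0.108), with adjusted p-values down to 0.000223 over 13 alternatives. The level of Tcf7l1 in Tnfaip2-/- EBs was 108.9% of that in WT EBs, and that of Tcf7 was 104.7%.

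The shares of Lef1 and Tcf7l2 in the TCF/LEF pool were lower in Tnfaip2-/- EBs, and those of Tcf7 and Tcf7l1 were higher. Per kb of exon, Lef1 made up 9.10%, 9.21% and 9.87% of the summed level of Lef1, Tcf7, Tcf7l1 and Tcf7l2 in WT EBs, and 4.997%, 4.90% and 4.50% in Tnfaip2-/- EBs. Its share fell by 4.59 percentage points, with no overlap between the groups, and the difference was -9.73 points in shares not divided by length. The share of Tcf7l1 was 38.6% ± 1.51 in WT EBs and 41.7% ± 0.755 in Tnfaip2-/- EBs (SD, n = 3), and that of Tcf7 was 50.1% ± 1.09 and 52.0% ± 0.648. Tcf7l2, the smallest part of the pool, had shares of 1.89% ± 0.0569 and 1.46% ± 0.0630. The size of all these differences depends on the division by length. For each of the 4 factors the exact permutation test gave a two-sided p = 0.1, the smallest that 3 against 3 samples allow, so the design cannot reach 0.05. The sum itself was 63.5 ± 1.21 CPM per kb in WT EBs (SD, n = 3). In Tnfaip2-/- EBs it was 63.99 ± 1.39 CPM per kb, and this difference was smaller than the spread between replicates. Without division by length, the summed CPM of the 4 factors was lower in every Tnfaip2-/- sample than in every WT sample. Lef1, the longest of them, weighs more in that sum.

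Of 13 nuclear genes, all tested, 4 fell and 4 rose, against 33.7% and 34.0% of all tested genes. Bcl9 and Pygo2, which link beta-catenin to transcription, had log2 fold changes of -1.07 and -0.68. Tle4, a co-repressor and the most abundant gene of this list in CPM, did not pass the test (log2 fold change 0.04, edgeR adjusted p = 0.248), but did with library totals (adjusted p = 0.0434). The related co-repressor Tle2 rose from 17, 11 and 9 counts to 55, 45 and 59 counts. The median log2 fold change of the list was 0.04, close to that of all tested genes.

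The target Sp5 fell most among the 4 feedback targets. Sp5 (ENSMUSG00000075304, chr2:70474923-70477729, forward strand), a transcription factor induced directly by beta-catenin, gave 166, 136 and 158 counts in WT EBs against 19, 23 and 22 in Tnfaip2-/- EBs. Each Tnfaip2-/- sample was far below each WT sample. The level fell 6.97-fold, from 6.71 ± 0.626 to 0.959 ± 0.111 CPM (SD, n = 3), and the fitted log2 change was -2.80 ± 0.159 (SE, edgeR adjusted p = 1.96e-20). Its relative Sp8 fell from 224, 228 and 255 counts to 35, 18 and 23 counts.

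In the list of 20 targets, which holds 6 of the 10 genes, 17 were tested, 13 fell and 2 rose. Their median log2 fold change was -0.97, and 8 fell by at least 2-fold, against 4.51% of all tested genes. Of the 8, T, Cdx1 and Cdx2 were under the filter's minimum of 10 counts in every Tnfaip2-/- sample, and passed through WT counts alone. T, the gene for Brachyury, gave 774, 732 and 866 counts in WT EBs against 5, 3 and 1 in Tnfaip2-/- EBs. The caudal genes Cdx1 and Cdx2 had 35, 43 and 44 and 42, 37 and 28 counts in WT EBs, against 0, 2 and 3 and 1, 2 and 0 counts in Tnfaip2-/- EBs. Ccnd1, which encodes cyclin D1 and was the most abundant target in CPM over all samples and in WT EBs, though below Tcf7 in Tnfaip2-/- EBs, fell 1.95-fold, with an antisense gene over 23.4% of its exon bases. The targets that rose were Rnf43 and Notum, so targets moved in both directions.

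**Figure D3:**
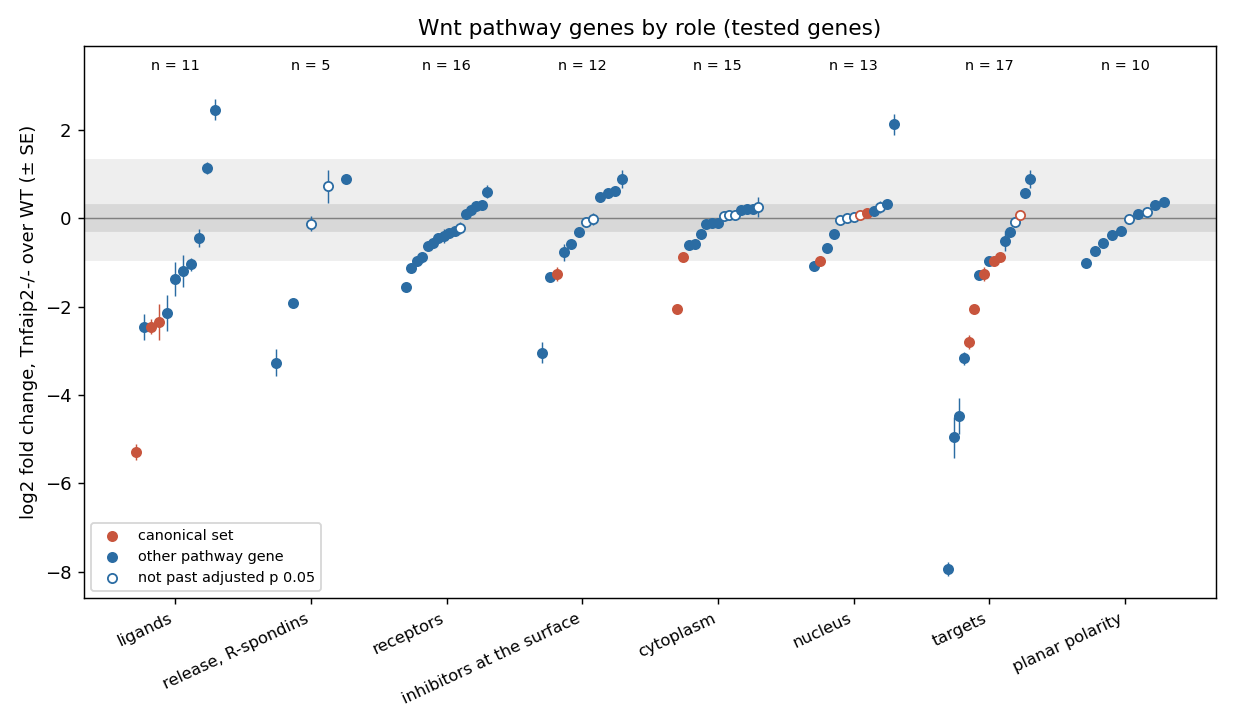
Log2 fold change (Tnfaip2-/- over WT, ± SE) of every tested pathway gene by role, with the number tested above each list. Red points are the 10 genes described here, open points did not pass an adjusted p of 0.05, and the dark and light bands hold the central 50% and 90% of all tested genes. Ligands and targets reach furthest below the bands. Every other list also holds genes below them, such as Rspo3, Frzb and Fzd10. Most cytoplasmic and nuclear genes lie near 0. The ligand Wnt4 and the nuclear gene Tle2 lie above the bands.

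Over the 8 lists together, 90 of 110 pathway genes were tested, of which 52 fell and 22 rose. The shares of all tested genes were 33.7% and 34.0%. Without the 10 genes, 44 of 80 tested genes fell and 21 rose, with a median log2 fold change of -0.29. Falls of at least 2-fold were called for 18 of these 80 genes and rises of that size for 3, against 4.51% and 7.46% of all tested genes. In the planar polarity list, which does not use beta-catenin, 5 of 10 genes fell and 3 rose, against 33.7% and 34.0% of all tested genes. The median log2 fold change of that list was -0.14. Vangl2, a membrane protein of that system, fell 2.03-fold, and the cadherins Celsr2, Celsr3 and Celsr1 of the same system fell 1.67-fold, 1.48-fold and 1.296-fold. Scrib, a scaffold protein and highest in CPM, had a log2 fold change of 0.09 (edgeR adjusted p = 0.01735) and lost its call under 5 of 13 alternatives, with adjusted p-values between 0.00195 and 0.342.

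Per exon length, the order of the genes differed between the genotypes. In WT EBs, Tcf7 was highest with 31.8 ± 0.372 CPM per kb, followed by Tcf7l1 with 24.5 ± 1.38 and Wnt8a with 7.13 ± 0.663 (SD, n = 3). Lef1, Axin2, Sp5, Nkd1, Dkk1, Wnt3 and Wnt3a came next in that order, down to 0.311 ± 0.0559 CPM per kb. Samples of neighbours in this order overlapped for Axin2 and Sp5 and for Dkk1 and Wnt3. In Tnfaip2-/- EBs, Tcf7 and Tcf7l1 were again highest, with 33.3 ± 0.871 and 26.7 ± 0.801 CPM per kb, but Wnt8a was in place 9 with 0.180 ± 0.0410 CPM per kb. There the overlapping neighbours were Axin2 and Dkk1, and Wnt3 and Wnt8a.

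**Figure D4:**
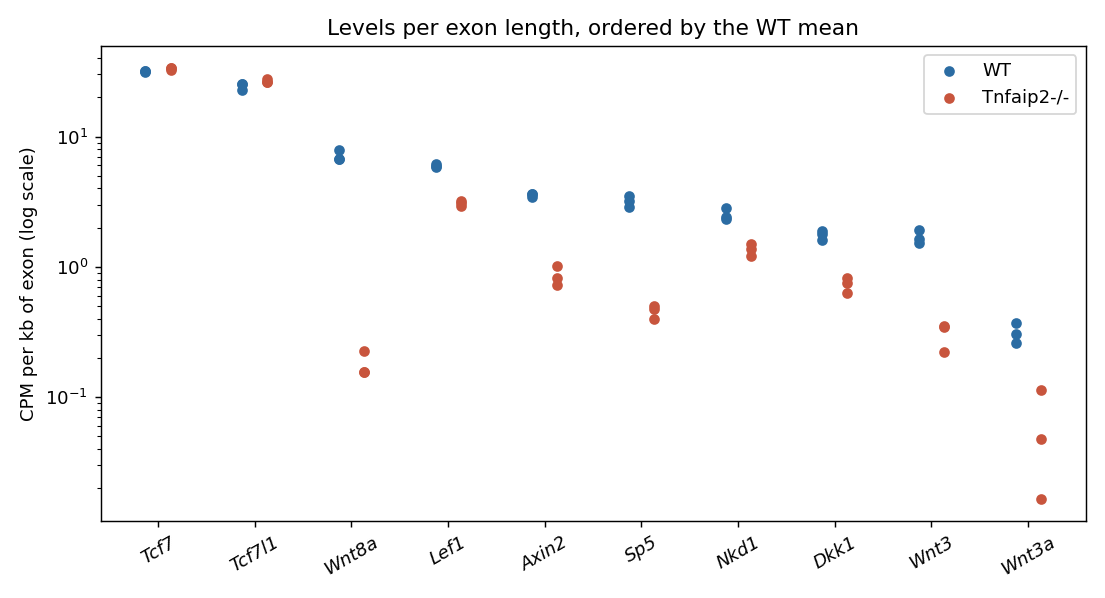
Level per exon length (CPM per kb, log axis) of the 10 genes in each sample, ordered by the WT mean. Tcf7 and Tcf7l1 are highest in both genotypes, and Wnt8a drops from 7.13 to 0.180 CPM per kb.

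The genes most like Wnt8a over the 6 samples were sought by the root mean square difference of centred log2(CPM + 0.5) values. The closest among all tested genes outside the set were Nkx1-2 (0.126), Fgf8 (0.140), Zic1 (0.426), Nsg2 (0.460) and Evx1 (0.547). Nkx1-2, a homeobox gene of the late streak, had 199, 208 and 198 counts in WT EBs and 4, 3 and 2 in Tnfaip2-/- EBs. The measure takes in the difference between the genotypes as well as the spread within them, and says nothing of shared control.

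Markers of the primitive streak moved with these genes. Of 10 streak markers, 9 were tested and all 9 fell, with a median log2 fold change of -4.05. The median was -3.74 with Mesp1 set to its bound at the floor of 3 counts per library. T, Mesp1, Lhx1 and Evx1 were under the filter's minimum of 10 counts in every Tnfaip2-/- sample, and passed through WT counts alone. The filter largely set the direction of such genes, so count and median hold for the tested markers alone. The summed level of all 10 markers was between 96.7 and 97.9 CPM in WT EBs and 22.0, 19.5 and 23.3 CPM in Tnfaip2-/- EBs. Eomes was the most abundant over all samples and in Tnfaip2-/- EBs, while T was the most abundant in WT EBs. Eomes fell 1.53-fold, from 28.4 ± 1.74 to 18.5 ± 1.54 CPM (SD, n = 3). Msgn1 was at 0 counts in all Tnfaip2-/- samples and had 9, 8 and 3 counts in WT EBs, at least 2.18-fold lower. Fgf8, Evx1 and Lhx1 fell 25.9-fold, 21.7-fold and 18.6-fold. The part of streak cells in the fall of the Wnt genes was not tested.

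No tested epiblast or neural marker rose. The 6 epiblast markers had summed levels between 1259.9 and 1292 CPM in WT EBs and between 784 and 798 CPM in Tnfaip2-/- EBs, with 5 falling and a median log2 fold change of -0.43. Dnmt3b, the most abundant over all samples and in WT EBs, though below Utf1 and Otx2 in Tnfaip2-/- EBs, fell 3.46-fold, and Cdh2, Fgf5 and Pou3f1 fell 1.97-fold, 1.35-fold and 1.34-fold. Of 7 neural markers, 4 were tested and all 4 fell, with a median of -1.22 and sums of 45.2 to 46.9 CPM in Tnfaip2-/- EBs against 101 to 108 CPM in WT EBs. Sox1, the most abundant, fell 3.06-fold, Pax6 and Nes fell 1.76-fold and 1.24-fold, and Zic1 gave 111, 94 and 107 counts against 2, 0 and 2. Zic1 passed the filter through its WT counts alone. Neurog2 gave no more than 1 count in any sample.

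Endoderm markers moved in both directions. Of 8, all tested, 3 fell, each by at least 2-fold, and 2 rose. A fall of that size was called for 4.51% of all tested genes. Afp, among those that fell, passed the filter through its WT counts alone. The median log2 fold change of the 8, 0.05, lies between genes that moved in opposite directions. The sums were between 27.7 and 30.9 CPM in WT EBs and between 24.9 and 26.8 CPM in Tnfaip2-/- EBs. Afp gave 21, 16 and 25 counts in WT EBs against 1, 0 and 2 in Tnfaip2-/- EBs, and Ttr and Foxa2 fell 3.86-fold and 2.23-fold. Sox7 rose 1.56-fold and Sox17 1.36-fold, the latter losing its call under 3 of 13 alternatives (edgeR or DESeq2 adjusted p between 0.00443 and 0.1805). Gata4, the most abundant, did not pass.

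Of 7 trophoblast markers, 5 were tested, 3 rose and 1 fell, with a median log2 fold change of 1.54 and sums between 52.5 and 56.3 CPM in WT EBs and between 202 and 207 CPM in Tnfaip2-/- EBs. Without Tfap2c, a division made after the values were seen, the sums were between 31.98 and 33.7 CPM in WT EBs and between 33.1 and 34.8 CPM in Tnfaip2-/- EBs. Tfap2c, the most abundant, rose 7.89-fold, and Hand1 and Ascl2 rose 3.37-fold and 2.92-fold. Krt8 fell 1.14-fold, a call lost under 2 of 13 alternatives (edgeR or DESeq2 adjusted p between 0.0123 and 0.122). The 7 fibroblast markers summed to between 14.2 and 16.2 CPM in WT EBs and between 10.5 and 10.8 CPM in Tnfaip2-/- EBs. Of these, 5 were tested and 3 fell, with a median log2 fold change of -0.49. Pdgfra, the most abundant, fell 1.40-fold, Col1a2 fell 2.83-fold, and Col3a1 gave 12, 21 and 12 counts against 1, 1 and 0. Postn gave 2, 2 and 4 counts in WT EBs and 0 in all Tnfaip2-/- samples, and Lum gave no more than 1 count in any sample. With genes at or under the floor set to their bounds, the medians of the epiblast, neural, endoderm, trophoblast and fibroblast lists were the same. The part of any of these cell types in the Wnt values was not tested.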

How the data were processed

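The authors trimmed the reads, mapped them to GRCm38 (Ensembl release 90) with TopHat2 2.1.0, counted uniquely mapped reads per gene with featureCounts 1.5.0 and deposited the counts without normalization. The kit does not keep strand, and how counting treated strand was not stated, so reads of antisense genes cannot be separated. All 162 list symbols matched 1 gene ID. Symbols, positions and exon lengths came from GENCODE M21 (same build, another annotation release than the authors'), and 52489 of 52636 gene IDs had a symbol. Counts were normalized by TMM and tested with edgeR 4.0.16 (glmQLFit, glmQLFTest, R 4.3.3) over the 17849 genes kept by filterByExpr (minimum count 10; total 15), with Benjamini-Hochberg adjustment at 0.05. Each standard error (SE) was the size of the log2 change over the root of its F statistic. CPM values use the TMM-scaled totals, and the floor of 3 counts covers counting error only. DESeq2 1.42.0, other normalizations and filters, a replicate block, stricter calls and each sample left out were alternatives. The fit was tested on simulated data.

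Named genes were all 10 of the set, Tnfaip2, from each list the gene highest in mean CPM over all samples and up to 4 with the largest change (adjusted p below 0.05, at least 1 CPM in a genotype, no overlap), and the 5 genes most like the most changed gene of the set. List genes at or under 3 counts in every sample of a genotype could also be named, and some of them are, by their counts. The genes and lists were chosen with earlier results of these data known. Samples of a genotype differed by between 1.40 and 2.09 times the sampling variance, and none was a copy of another. The labels do not say that the replicates were separate cultures, although the study calls them biological, so p-values measure only the spread between these samples, which may be technical. Promoter windows came from RefSeq.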

Additional observations from a re-analysis of the deposited data

How the results depend on the processing

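For 79 single genes under up to 13 alternatives, 1000 of 1025 values kept their direction and their side of the threshold, 20 lost a call, 3 gained one and 2 changed sign. The 8 genes of the set that fell were also 8 under every alternative but the stricter filter, which left 7 because Wnt3a was not tested. The number that rose was 2 with library totals, 0 against a fold change of 1.5, and between 0 and 2 with a sample left out. Against a fold change of 1.5, 2798 genes were called in all, with 30 pathway genes lower and 4 higher, because that test asks for a larger change. Without division by length, the change in TCF/LEF share was -9.73 percentage points for Lef1, 4.03 for Tcf7, 6.42 for Tcf7l1 and -0.73 for Tcf7l2, since longer genes then weigh more. The change in the share of Wnt3, Wnt3a and Wnt8a was then -47.5 instead of -55.7 points, an alternative chosen after seeing the data, as were those of the marker genes and of further pathway genes. Gata4, never called, changed sign without WT replicate 2 (log2 fold change 0.018) and without Tnfaip2-/- replicate 1 (0.024), in a range from -0.11 with a sample left out, and the cause was not tested. A fit with a block for replicate number called 11841 genes, with 8 of the set lower, 1 higher, and 51 pathway genes lower and 22 higher. Same-numbered samples correlated between -0.0843 and -0.0757 after removal of the genotype means. Samples of different number correlated between 0.015 and 0.064, so no sample correlated best with its own number. With 3 samples per genotype, these values cannot show whether samples of a number were prepared together. Among the 10 genes of the set, counts limit Wnt3a most, with at most 7 in a Tnfaip2-/- sample.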
